A study of Homo sapiens with 9 samples.

Results

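The 10 genes described here encode 2 endothelial adhesion molecules, PECAM1 and ESAM, and the core of the vascular endothelial growth factor (VEGF) axis: the receptors KDR, FLT1 and FLT4, the co-receptors NRP1 and NRP2, and the ligands VEGFA, VEGFB and VEGFC. They were taken by name, with every probe set annotated to 1 of them, and make up 10 of 18132 genes and 44 of 49293 probe sets on the array. Where a gene had several, the one whose signal averaged highest across the 9 arrays stands for it, and levels are not compared between genes. The genes were listed with the falls of PECAM1, ESAM and KDR under PD325901 already in view, so the values of those 3 genes in PD325901 arrays are a description with no p-value.

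RNA came from MDA-MB231, an established human breast cancer line, grown in serum-containing medium and hybridised to Affymetrix PrimeView arrays. Control cultures (n = 4) received 0.1% DMSO, BB94 cultures (n = 2) received 10 µM of batimastat, a metalloproteinase inhibitor, and PD325901 cultures (n = 3) received 3 µM of an inhibitor of MEK. All were plated at 70% confluency, carried no genetic change named in the labels, and were lysed after 24 h at about 90% confluency. The series asks how shedding of receptors by proteases bears on resistance to kinase inhibitors, and the comparisons below ask what each inhibitor did to transcripts of this receptor and ligand system.

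VEGF ligands are secreted dimers that bind receptor tyrosine kinases: VEGFA binds FLT1 and KDR, VEGFB binds FLT1, and VEGFC binds FLT4 and KDR. Neuropilins are transmembrane co-receptors that take up VEGF ligands and also class 3 semaphorins, which signal through plexins. PECAM1 and ESAM are immunoglobulin-family molecules that hold endothelial cells together at their junctions. In carcinoma cells VEGFA is best known as a secreted product that acts on nearby vessels, while the receptors are best known from endothelium.

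All 6 MDA-MB231 markers (VIM, CD44, AXL, MSN, SPARC and FN1) lay above background on all 9 arrays, whereas CDH1, ESR1 and PGR lay above it on 0 arrays. ERBB2, GATA3 and EPCAM, fixed as low markers, were above it on all 9. Under PD325901 CDH1 (log2 change 1.39, adjusted p = 6.0e-06, below background), GATA3 (0.90, adjusted p = 5.6e-05) and ERBB2 (0.82, adjusted p = 2.5e-04) were called higher and MSN lower (-0.31, adjusted p = 0.0081), and the part of these marker shifts in the differences described here was not tested. Of 10 endothelial markers, 8 lay above background on 0 arrays, among them CDH5, VWF, CLDN5 and TEK, and only TIE1 and ROBO4 were measured above it. The summed log2 level of the 10 ran from 11.87 to 12.04 in control, 12.27 to 12.33 in BB94 and 10.89 to 11.16 in PD325901 arrays. ROBO4 carries that sum (11.78, 12.19 and 10.76 in the same order), and under PD325901 it was the 1 marker called lower, with 0 called higher, 9 not called and a median change of 0.03. All 4 measured leukocyte markers lay below background throughout, although ITGAM was called higher under PD325901 (3.88 in control, 6.13 in PD325901, adjusted p = 8.2e-06). Of 5 fibroblast markers 3 lay above background on 0 arrays, while COL1A1 lay above it on all 9 and PDGFRB on 1. LUM, below background on every array, was called higher under PD325901 (log2 change 0.75, adjusted p = 2.4e-04). The background level of an array is the highest of its 23 background probe sets, 6.02 to 6.5 on the log2 scale. It is a strict floor, since the medians of those probe sets were 2.92 to 3.05, and a value below it need not mean that the transcript is absent. The difference between 3' and 5' probe sets of ACTB, a measure of RNA integrity, was 2.96 to 3.89 in control, 3.91 and 4.22 in BB94 and 3.5 to 4.15 in PD325901 arrays. Whether it had a part in the BB94 differences was not tested. Labels call the cultures biological replicates, and in RNA of a whole culture fewer cells with a transcript and less transcript per cell cannot be told apart.

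Under PD325901 VEGFA, NRP1 and VEGFC fell and VEGFB rose, beside the lower values of PECAM1, ESAM and KDR for which the genes were listed. Of the 7 genes other than those 3, limma called 4 lower (VEGFA, NRP1, VEGFC and FLT1, whose signal lay below background) and VEGFB higher at an adjusted p under 0.05, and FLT4 and NRP2 were not called. Of all 18132 genes 35.1% were called, 12.3% lower and 22.8% higher. Counted with the 3 genes known beforehand, 7 of 10 were lower and 1 higher. The median log2 change of the 7 was -0.27, against 0.08 over all genes. In BB94 against control limma called 1 of 10, FLT1, below background on all arrays and not called without BB94 replicate 2, and 9 were not called, where 1.58% of all genes were called, 1.09% lower and 0.491% higher. Unadjusted, 1968 of all genes had a p under 0.05. Both comparisons use the same control arrays. Centring the arrays on their median over genes moved the median change of all genes from 0.08 to -0.17 and turned the split of calls over all genes from 65.1% higher to 31.7% higher. Among the 7 genes other than PECAM1, ESAM and KDR, the 4 lower calls and the 1 higher call under PD325901 kept their direction with both centrings and with cyclic loess.

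**Figure D1:**
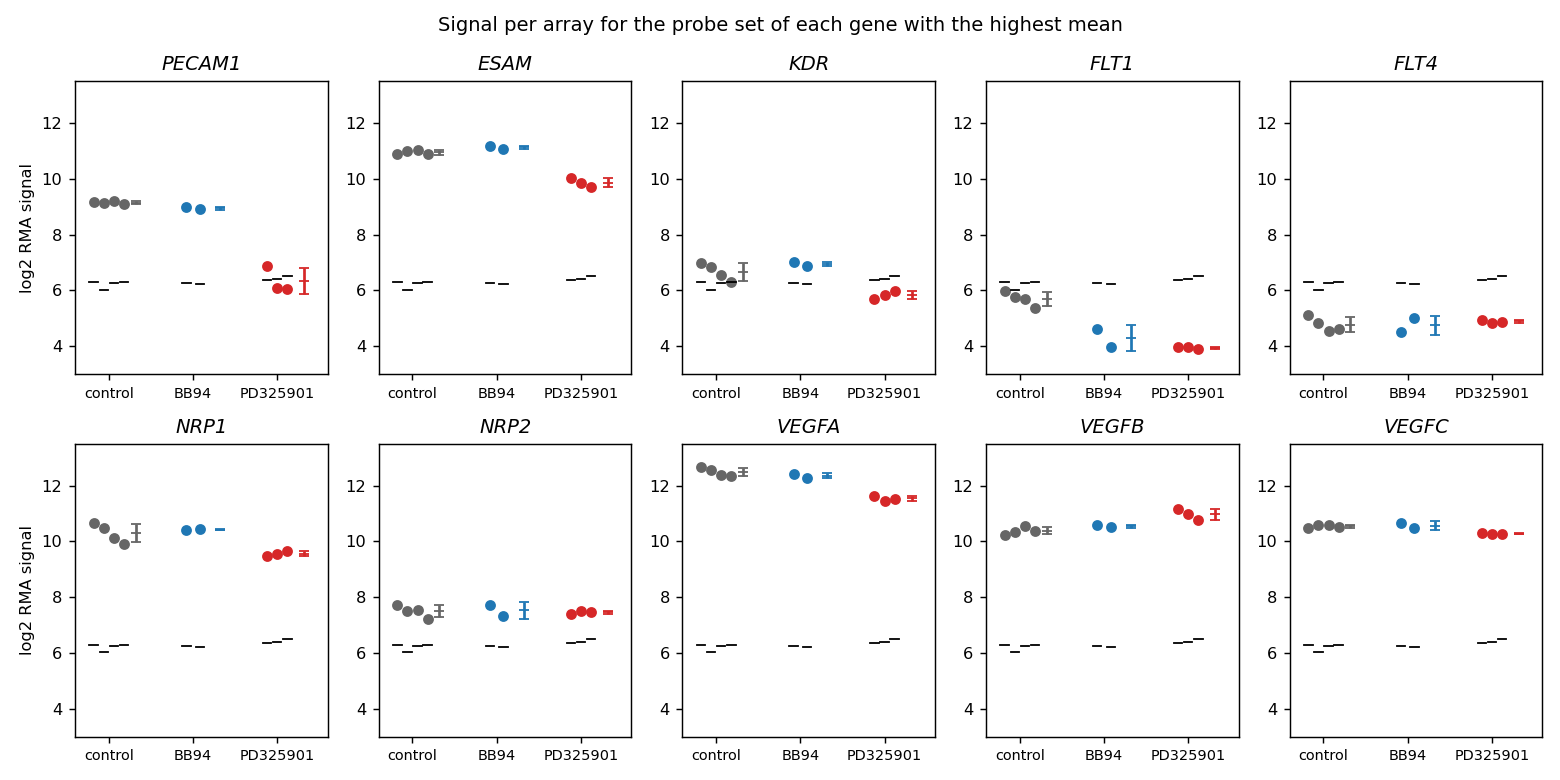
Log2 RMA signal (y axis) of each gene's probe set with the highest mean, in control (n = 4), BB94 (n = 2) and PD325901 (n = 3) arrays. Points are arrays, the bar beside each group is its mean ± SD, and short black lines mark each array's background level; the 3 PD325901 points of PECAM1, at 6.06 to 6.86, lie near that level.

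PECAM1, a homophilic adhesion molecule of endothelium and platelets, had the widest difference of the 10 genes. Its log2 signal was 9.17, 9.13, 9.19 and 9.09 in the control arrays, 8.97 and 8.90 in the BB94 arrays and 6.86, 6.07 and 6.06 in the PD325901 arrays. The control values lie within 0.11 of each other, and every PD325901 array is more than 2 log2 units below them. Only 1 of the 3 PD325901 arrays was above background, so the fall from 9.15 ± 0.05 (SD, n = 4) to 6.33 ± 0.46 (SD, n = 3) amounts to at least 5.89-fold. BB94 arrays lay below all control arrays, but the change of -0.21 (95% interval -0.64 to 0.22) was not called (adjusted p = 0.83). The probe set carries the _x_ suffix, which marks probes that can match other sequences. The second PECAM1 probe set lay below background on every array, with a log2 change of -0.80 under PD325901, and averaging both gave -1.81.

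ESAM, a junctional adhesion molecule of endothelium, was measured well above background in all arrays. Its signal was 10.88, 10.998, 11.03 and 10.88 in control, 11.17 and 11.08 in BB94 and 10.03, 9.86 and 9.69 in PD325901 arrays. PD325901 arrays lie below all others, with means of 9.86 ± 0.17 (SD, n = 3) and 10.95 ± 0.08 (SD, n = 4), a 2.12-fold difference. Both BB94 arrays lie above all controls, but the change of 0.18 (95% interval -0.06 to 0.42) was not called (adjusted p = 0.65). The second ESAM probe set stayed below background, and averaging both gave a change of -0.63 under PD325901.

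Output genes of the ERK pathway were read beside PECAM1. DUSP6, a phosphatase of ERK induced by the pathway, read 11.04, 8.99 and 8.02 in PD325901 replicates 1 to 3, and SPRY4, a feedback inhibitor, read 6.72, 5.83 and 4.78. Replicate 1 was the highest of the 3 in PECAM1, DUSP6 and SPRY4 alike. The 5 genes most like PECAM1 over the 9 arrays, among 3478 genes with a range of at least 1, were ETV4 (Pearson r = 0.998), MYEOV (0.997), TMEM171 (0.996), CDC25A (0.995) and ETV5 (0.995). ETV4 and ETV5 are ETS transcription factor genes of the PEA3 group, and CDC25A is a phosphatase gene of the cell cycle. ETV4 stood at 9.5 to 9.83 in control and at 5.92, 4.75 and 4.8 under PD325901. ETV5 stood at 12.69 to 12.82 and at 9.49, 8.01 and 7.71. These correlations are descriptions, since the points share a treatment that sets 3 of them apart.

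**Figure D2:**
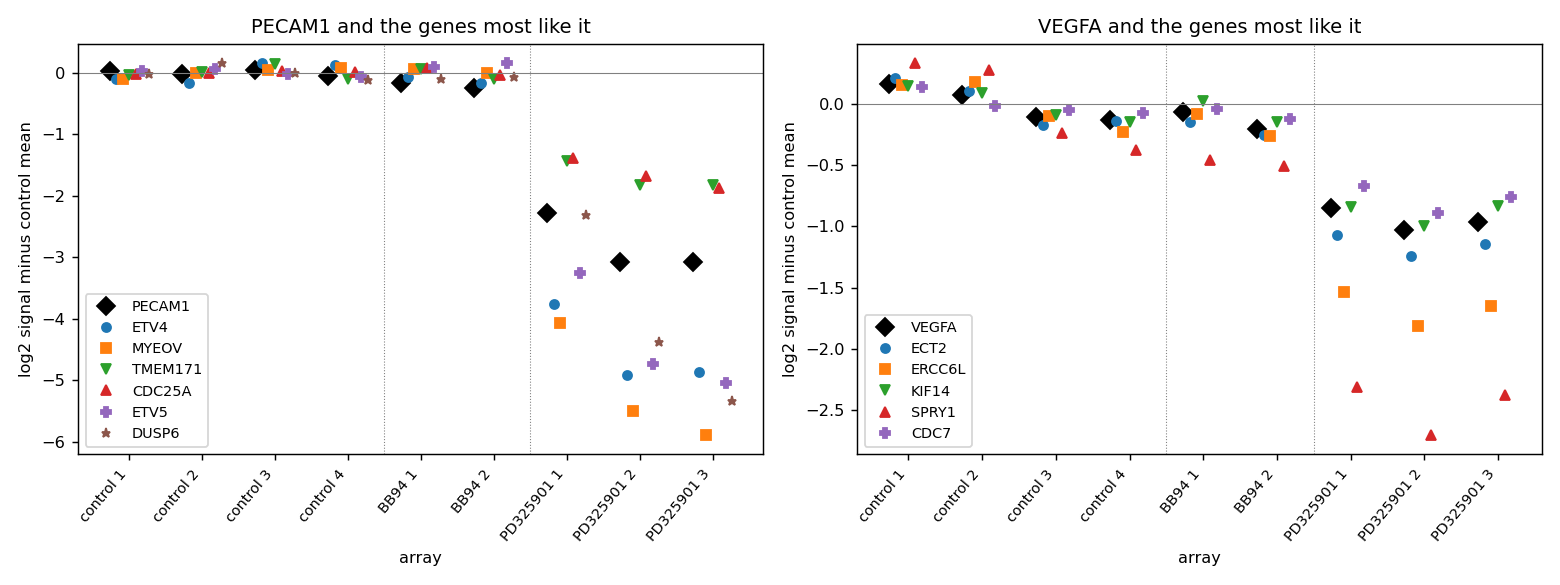
Log2 signal minus the mean of the 4 control arrays (y axis) in each of the 9 arrays (x axis), for PECAM1 with DUSP6 and the 5 genes most like PECAM1 (left) and for VEGFA with the 5 genes most like it (right). On the left the symbols of PD325901 replicate 1 lie nearest to control in every gene shown, and on the right the PD325901 symbols of VEGFA lie between -1.03 and -0.85.

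Genes next to PECAM1 and ESAM were read as well, a choice made after values were seen. Neighbours are the 3 nearest protein-coding genes on each side in the RefSeq order of GRCh38.p14, a window widened from 2 a side once ROBO4 was seen in it. Of 56 measured for the 10 genes, 8 were lower and 9 higher under PD325901, against 12.3% and 22.8% of all genes. MILR1, an inhibitory immunoglobulin-like receptor gene that adjoins PECAM1, read 7.59, 7.41, 7.53 and 7.5 in control, 7.18 and 7.18 in BB94 and 5.23, 4.62 and 5.56 in PD325901 arrays. It fell at least 2.12-fold to below background (adjusted p = 2.8e-06), while POLG2 and DDX5 beyond it had changes of -0.07 and -0.16 that were not called. TEX2, on the other side, had -0.47 (adjusted p = 7.6e-04). ROBO4, an endothelial guidance receptor gene and the third gene from ESAM, read 11.71 to 11.90 in control and 10.87, 10.81 and 10.58 under PD325901, a 2.03-fold fall (adjusted p = 1.1e-05). Between them MSANTD2 fell (-0.50, adjusted p = 0.00768) and ROBO3 rose (0.50, adjusted p = 0.00429), and ROBO3 lost its call with arrays centred over genes (adjusted p = 0.050). On the other side VSIG2 was not called (-0.12), and NRGN, above background in 1 of 3 PD325901 arrays, fell at least 1.86-fold (adjusted p = 7.3e-04). In BB94 arrays ROBO4 read 12.16 and 12.22, above all controls, with a change of 0.41 that was not called (adjusted p = 0.113).

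**Figure D3:**
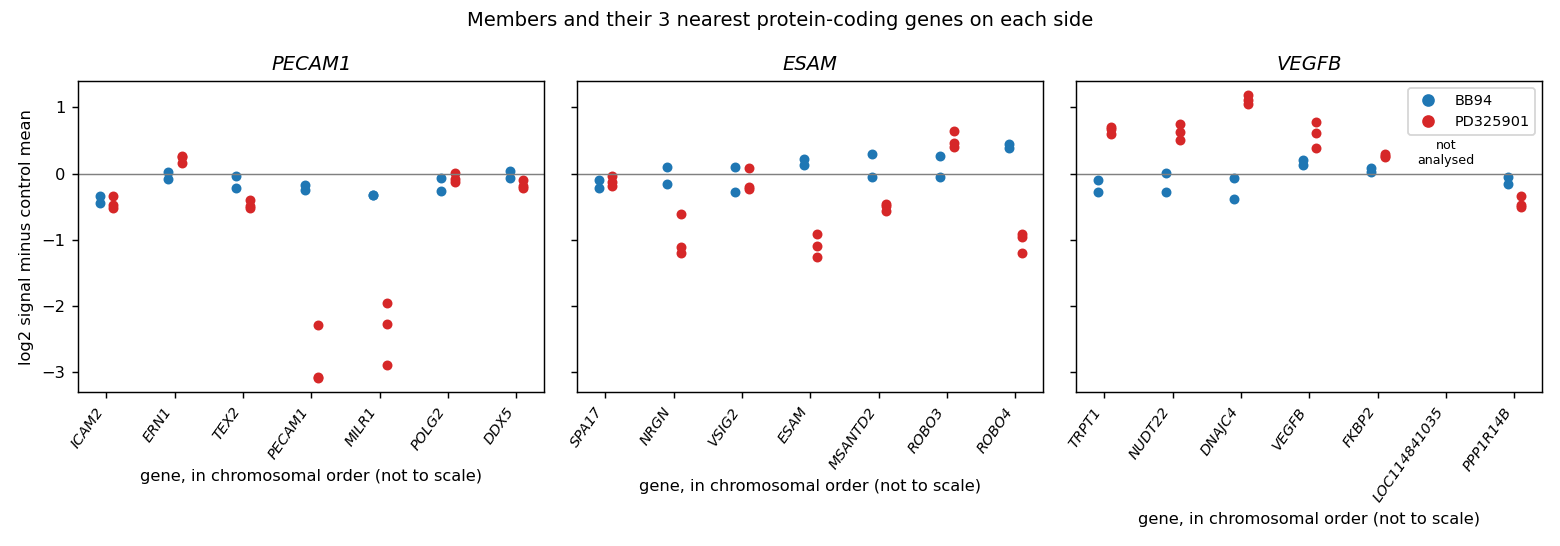
Log2 signal minus the control mean (y axis) of PECAM1, ESAM and VEGFB with the 3 nearest protein-coding genes on each side, in chromosomal order and not to scale (x axis). Points are BB94 (n = 2) and PD325901 (n = 3) arrays; the PD325901 points of MILR1 lie beside those of PECAM1 near -2 and -3, and those of DNAJC4, next to VEGFB, lie near 1.

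The receptor genes lay near or below background on these arrays. RefSeq's table (GRCh38.p14) held a promoter for 5 of the 10 genes, FLT1, KDR, NRP2, VEGFB and VEGFC, and 3 are shown, for the receptor genes with lower signals and for the ligand gene that rose: the 250 bases before the start of FLT1, of KDR and of VEGFB. Capitals in FLT1 mark TGACGTCA, the cyclic AMP response element, and GGAA, the core bound by ETS factors. Capitals in KDR and VEGFB mark GGGCGG, the GC box bound by SP1. Each motif was searched on both strands and overlaps were kept.
FLT1 upstream region, chr13:28495129-28495378, minus strand: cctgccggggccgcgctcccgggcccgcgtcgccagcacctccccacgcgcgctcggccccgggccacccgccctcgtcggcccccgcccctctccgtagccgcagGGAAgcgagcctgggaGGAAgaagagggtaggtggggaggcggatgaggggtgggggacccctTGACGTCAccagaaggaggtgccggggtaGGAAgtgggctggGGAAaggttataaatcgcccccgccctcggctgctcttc
KDR upstream region, chr4:55125596-55125845, minus strand: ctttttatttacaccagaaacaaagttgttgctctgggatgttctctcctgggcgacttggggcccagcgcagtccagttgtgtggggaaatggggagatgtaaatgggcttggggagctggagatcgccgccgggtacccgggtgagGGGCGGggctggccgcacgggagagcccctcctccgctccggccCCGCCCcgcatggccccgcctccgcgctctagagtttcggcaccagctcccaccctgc
VEGFB upstream region, chr11:64234334-64234583, plus strand: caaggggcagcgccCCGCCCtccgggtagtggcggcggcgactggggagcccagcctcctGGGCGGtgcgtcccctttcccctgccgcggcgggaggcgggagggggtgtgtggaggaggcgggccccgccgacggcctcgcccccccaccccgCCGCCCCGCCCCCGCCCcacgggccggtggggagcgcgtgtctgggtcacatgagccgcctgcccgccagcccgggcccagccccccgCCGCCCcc
TGACGTCA occurred 1 time in the FLT1 window, beginning 81 bases before the start, and in 1.65% of 35116 RefSeq promoter windows of this length. GGAA occurred 4 times there, and 34.3% of windows held at least 4. GGGCGG, left in small letters in FLT1, occurred 3 times there, and 13.9% of windows held at least 3. The KDR window held GGAA 1 time and GGGCGG 2 times, and 24.3% of windows held at least 2 GC boxes. The VEGFB window held GGGCGG 6 times, and 2.22% of windows held at least 6. In the windows of NRP2 and VEGFC, which are not shown, GGGCGG occurred 3 and 2 times. A match describes the letters and is not a measured binding site.

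KDR, the main signalling receptor for VEGFA, lay close to background. It read 6.99, 6.82, 6.55 and 6.28 in control, 7.0 and 6.88 in BB94 and 5.68, 5.83 and 5.99 in PD325901 arrays. Above background were 3 of 4 controls, 2 of 2 BB94 arrays and 0 of 3 PD325901 arrays, and PD325901 values did not overlap with either other group. The difference of 5.83 ± 0.16 (SD, n = 3) from 6.66 ± 0.31 (SD, n = 4) was at least 1.18-fold. In BB94 the change of 0.28 (95% interval -0.11 to 0.67) was not called (adjusted p = 0.672), became 0.52 and was called against control replicates 3 and 4 alone (adjusted p = 0.0450, range 0.0450 to 0.998 over 21 alternatives), and was 0.03 against replicates 1 and 2. The other KDR probe set stayed between 3.30 and 3.71 on all arrays, and averaging the pair gave -0.43 under PD325901.

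FLT1, a high-affinity receptor for VEGFA, VEGFB and PGF that also exists as a soluble decoy, gave a signal below background on all 9 arrays. It read 5.98, 5.77, 5.70 and 5.36 in control, 4.63 and 3.98 in BB94 and 3.96, 3.98 and 3.90 in PD325901 arrays. All treated arrays lie below all controls, but every value lies below the background level, so no fold is given and the size of a change is not known. The log2 difference of these signals was -1.76 under PD325901 (SE 0.17, adjusted p = 1.5e-05) and -1.40 under BB94 (SE 0.19, adjusted p = 0.00466). The direct difference between the inhibitors was -0.36 (95% interval -0.81 to 0.08, adjusted p = 0.214), and it was called without BB94 replicate 2, at -0.69 (adjusted p = 0.0401), while without BB94 replicate 1 it was -0.04 (adjusted p = 0.944). Leaving out BB94 replicate 2 ended the BB94 call (adjusted p = 0.0794), and over 20 alternatives its adjusted p lay between 6.3e-04 and 0.198. The other 4 FLT1 probe sets read 2.87 to 3.90 on every array and none was called, and the mean of all 5 changed by -0.36 under PD325901 (adjusted p = 0.00923) and by -0.34 under BB94 (adjusted p = 0.198).

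FLT4, the receptor of VEGFC in lymphatic endothelium, did not differ detectably. It read 4.53 to 5.12 in control, 4.51 and 5.0 in BB94 and 4.83 to 4.95 in PD325901 arrays, all below background and with overlapping groups. Its change was 0.11 under PD325901 (95% interval -0.23 to 0.45) and -0.02 under BB94 (95% interval -0.41 to 0.36), with adjusted p = 0.654 and 0.992. All 6 of its probe sets lay below background and limma called 0 of them in any comparison, with 0 at an unadjusted p under 0.05.

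NRP1, the co-receptor that strengthens VEGFA signalling through KDR, was lower under PD325901 in both of its well-measured probe sets. The chosen one read 10.66, 10.50, 10.14 and 9.92 in control, 10.42 and 10.43 in BB94 and 9.47, 9.57 and 9.67 in PD325901 arrays. The second read 9.68, 9.83, 10.10 and 10.15 in control, 10.08 and 10.07 in BB94 and 9.05, 9.15 and 9.03 in PD325901 arrays. In both, all PD325901 arrays lay below all others, whereas the order of the controls differed: replicates 1 and 2 were above replicates 3 and 4 in the first and below them in the second. The fall was 1.67-fold in the chosen probe set (log2 -0.74, SE 0.16, adjusted p = 0.00386) and -0.86 on the log2 scale in the second (adjusted p = 2.4e-04 over all probe sets). Against control replicates 3 and 4 alone the chosen probe set changed by -0.46 (adjusted p = 0.00486), and against replicates 1 and 2 alone by -1.01. ACTB's 3' minus 5' difference was 3.89, 3.75, 3.46 and 2.96 in control replicates 1 to 4, and its part in the order of the controls was not tested. Of the 6 NRP1 probe sets 4 were lower and 0 higher under PD325901, and the mean of all 6 changed by -0.47. Only the 2 well-measured ones were above background in all arrays of at least 1 of the 2 groups. In BB94 the change was 0.12 (95% interval -0.28 to 0.52, adjusted p = 0.919).

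NRP2, the co-receptor more often paired with VEGFC and FLT4, was not called with either inhibitor. It read 7.21 to 7.73 in control, 7.74 and 7.31 in BB94 and 7.4 to 7.5 in PD325901 arrays, and the groups overlapped. The change was -0.03 under PD325901 (95% interval -0.33 to 0.26, adjusted p = 0.886) and 0.03 under BB94 (95% interval -0.31 to 0.37, adjusted p = 0.986). Of its 9 probe sets 1 was called higher under PD325901, by 0.45 (adjusted p = 0.038 over all probe sets), with both groups below background on every array. The second probe set above background on all 9 arrays read 6.74 to 7.33 in control, 7.60 and 7.31 in BB94 and 7.34 to 7.49 in PD325901 arrays, which lie above all controls. Its changes of 0.34 under PD325901 (adjusted p = 0.116 over all probe sets, unadjusted 0.0418) and 0.37 under BB94 (adjusted p = 0.444, unadjusted 0.0501) were not called. Whether the change of NRP2 differed from that of NRP1 was not tested.

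**Figure D4:**
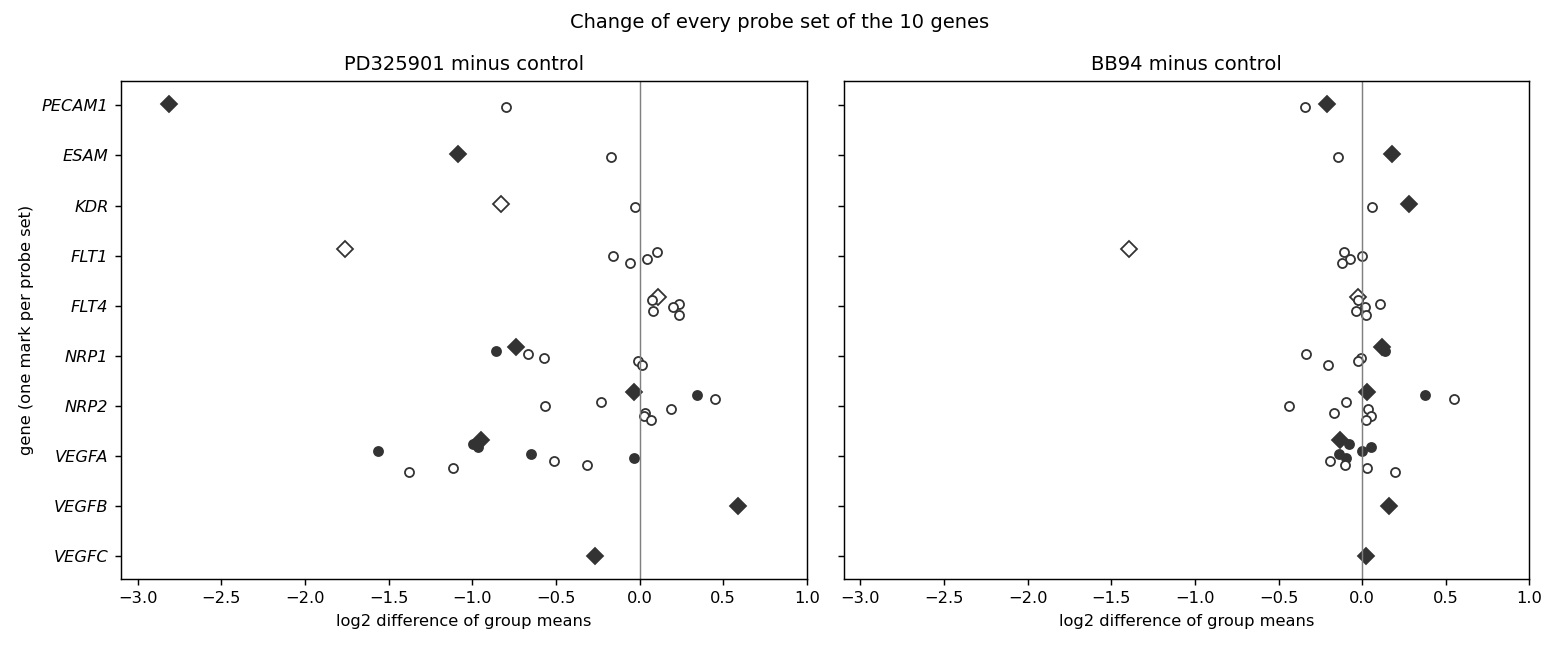
Log2 difference of group means (x axis) for every probe set of the 10 genes (y axis), for PD325901 minus control (left) and BB94 minus control (right). Diamonds are the probe sets with the highest mean and circles the others; filled symbols were above background in all arrays of at least 1 of the 2 groups. On the left the 4 brightest VEGFA probe sets lie between -1.56 and -0.95.

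VEGFA, the main angiogenic ligand of tumour cells, fell 1.93-fold under PD325901. It read 12.66, 12.56, 12.39 and 12.36 in control, 12.43 and 12.28 in BB94 and 11.64, 11.46 and 11.53 in PD325901 arrays. The PD325901 arrays lie below all others and within 0.18 of each other, while BB94 and control arrays overlap. The log2 change was -0.95 (SE 0.10, adjusted p = 2.6e-05). Of 10 VEGFA probe sets, 8 were lower and 0 higher under PD325901, and the changes of all 10 ran from -1.56 to -0.03. Only 6 of them were above background in all arrays of at least 1 of the 2 groups, and 5 of those 6 were lower. The widest well-measured change was in a probe set that read 9.45 to 9.67 in control and 7.94, 7.99 and 8.07 in PD325901 arrays (log2 -1.56, adjusted p = 3.9e-07 over all probe sets). A dimmer probe set, above background in all controls and in 2 of 3 PD325901 arrays, read 6.36 to 6.86 in control and 6.48 to 6.54 under PD325901 and was not called (-0.03). Under BB94 limma called 0 of the 10, with 0 at an unadjusted p under 0.05, and the chosen one changed by -0.14 (95% interval -0.38 to 0.11, adjusted p = 0.778). The 5 genes most like VEGFA over the 9 arrays were ECT2 (Pearson r = 0.998), ERCC6L (0.996), KIF14 (0.995), SPRY1 (0.995) and CDC7 (0.994). ECT2, ERCC6L and KIF14 act in mitosis and CDC7 in DNA replication, and SPRY1 is a feedback inhibitor of receptor tyrosine kinase signalling.

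VEGFB, a ligand of FLT1 linked to fatty acid uptake, was the one member that rose. It read 10.24, 10.35, 10.56 and 10.38 in control, 10.58 and 10.51 in BB94 and 11.16, 10.99 and 10.77 in PD325901 arrays, with all PD325901 arrays above all others. The rise was 1.5-fold (log2 0.59, SE 0.11, adjusted p = 0.00152), and 0.34 with arrays centred on their median over genes (adjusted p = 0.0224). Under BB94 the change of 0.16 (95% interval -0.11 to 0.43) was not called (adjusted p = 0.762). The 3 genes next to VEGFB on one side also rose under PD325901: DNAJC4 2.17-fold (adjusted p = 3.6e-04), NUDT22 1.55-fold (adjusted p = 0.00173) and TRPT1 1.58-fold (adjusted p = 0.00108). On the other side FKBP2 was not called (0.27, adjusted p = 0.0533), and PPP1R14B fell (-0.44, adjusted p = 0.0188), a call lost without PD325901 replicate 2 or 3 (0.0680 and 0.0708). These neighbours too were added after their values were seen. Of the 56 measured for the 10 genes, 9 were higher and 8 lower, beside 22.8% and 12.3% of all genes.

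VEGFC, the lymphangiogenic ligand, fell slightly under PD325901. It read 10.49, 10.58, 10.60 and 10.52 in control, 10.67 and 10.47 in BB94 and 10.30, 10.26 and 10.28 in PD325901 arrays. The PD325901 arrays lie below all others, with a 1.20-fold fall (log2 -0.27, SE 0.08, adjusted p = 0.0226). This call did not hold without control replicate 2 or 3 (adjusted p = 0.0618 and 0.0542) or without any 1 of the PD325901 replicates (0.0595, 0.0851 and 0.0655 in order, range 3.5e-04 to 0.0851 over 21 alternatives). It was also lost with the replicate block (0.0540) and with control replicates 1 and 2 alone (0.0518), and it grew to -0.52 with arrays centred over genes. Under BB94 VEGFC did not differ detectably (0.02, 95% interval -0.17 to 0.22, adjusted p = 0.975).

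Set against each other, the inhibitors left different levels of VEGFA and NRP1 in all 19 alternatives, while the calls of VEGFC and VEGFB were less stable. Of the 10, 6 were lower and 1 higher in PD325901 than in BB94, where 31.2% of all genes were called, 10.2% lower and 21.0% higher, and among the 7 other than PECAM1, ESAM and KDR the counts were 3 and 1. PECAM1 differed by at least 5.10-fold, ESAM by 2.4-fold and KDR by at least 1.44-fold, a description only, since their PD325901 values were known beforehand. VEGFA was 1.76-fold lower with PD325901 (adjusted p = 3.4e-04) and NRP1 1.81-fold lower (adjusted p = 0.00530). VEGFC was 1.22-fold lower (adjusted p = 0.0379) and VEGFB 1.35-fold higher (adjusted p = 0.0281). VEGFB lost that call without BB94 replicate 1 or 2 (0.0893 and 0.159) or PD325901 replicate 1 or 2 (0.0991 and 0.0765), and with the replicate block (0.0718). Centring over genes gave VEGFB 0.10 (0.517) and centring over probe sets 0.21 (0.280), with a range of 0.00645 to 0.517 over 19 alternatives. VEGFC lost it without control replicate 2 (0.0596), BB94 replicate 1 (0.304), or PD325901 replicate 1, 2 or 3 (0.0786, 0.109 and 0.0852), with the replicate block (0.0689) and over every probe set (0.0587), within a range of 4.4e-04 to 0.304 over 19 alternatives.

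Beyond the 10 genes, the ligand genes of the wider axis split under PD325901. PGF, placental growth factor and a ligand of FLT1, read 7.53, 7.47, 8.05 and 7.85 in control, 7.44 and 7.21 in BB94 and 5.57, 5.16 and 5.14 in PD325901 arrays, and fell at least 2.47-fold to below background (adjusted p = 1.0e-06). ANGPT1, the activating ligand of the receptor TEK, read 4.01 to 5.06 in control, 4.17 and 4.04 in BB94 and 8.20, 7.83 and 7.66 in PD325901 arrays, and rose at least 3.21-fold from below background (adjusted p = 2.0e-06). Of 8 genes of the angiopoietin and TIE system 2 were called higher and 6 were not called, where 22.8% of all genes were higher and 12.3% lower, and the other was PTPRB with both groups below background. With arrays centred over genes 2 were higher and 3 lower, and with centring over probe sets or cyclic loess 2 and 2. In BB94 against control 1.58% of all genes were called. Under BB94, ANGPTL4 was the 1 called, also below background in both groups, and it lost that call without any 1 of control replicates 2 to 4, either BB94 replicate, or PD325901 replicate 2 or 3 (adjusted p = 0.0599 to 0.313), from the arrays of its 2 groups alone (0.0942) and against control replicates 1 and 2 alone (0.122).

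Semaphorins and plexins, the other partners of neuropilins, moved in both directions. Of 12 genes, 6 rose under PD325901, 2 fell and 4 were not called, beside 22.8% higher and 12.3% lower of all genes. Their median log2 change was 0.34, and with arrays centred over genes 4 rose and 4 fell. The plexin genes PLXNA1 (2.78-fold, adjusted p = 1.2e-06) and PLXNA2 (at least 2.93-fold, above background in 1 of 3 treated arrays, adjusted p = 3.1e-07) fell. SEMA3E rose 2.84-fold (adjusted p = 1.1e-05) and SEMA3G 2.30-fold (adjusted p = 1.0e-06). Under BB94 limma called 3 of the 12, 1 higher and 2 lower, where 1.58% of all genes were called. Unadjusted, 8 of the 12 had a p under 0.05, against 1968 of all 18132 genes. PLXNA2 rose 1.73-fold, from 7.93 to 8.16 in control to 8.87 and 8.76 (adjusted p = 0.00344), and lost its call without BB94 replicate 1 (0.0577). SEMA3A, a ligand of NRP1, fell 1.70-fold, from 10.13 to 10.38 in control to 9.54 and 9.49 (adjusted p = 0.00241), and lost its call without BB94 replicate 2 (0.0556), while its PD325901 arrays read 10.24 to 10.31. SEMA3E fell 1.71-fold (adjusted p = 0.0387), a call lost without control replicate 2 or 4, either BB94 replicate, or PD325901 replicate 2 or 3 (0.0684 to 0.402). It was also lost with the mean of its probe sets (-0.37, adjusted p = 0.508), the replicate block (0.133), centring over genes (0.0731) and the arrays of its 2 groups alone (0.0988).

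Genes through which hypoxia controls VEGFA moved both ways under PD325901. Of 16 measured, 6 rose under PD325901, 2 fell and 8 showed no call, beside 22.8% and 12.3% of all genes, with a median of 0.08, the same as over all genes. With arrays centred over genes 4 rose and 6 fell. EPAS1, which encodes the hypoxia-inducible factor HIF-2 alpha, read 8.62 to 8.76 in control, 8.70 and 8.57 in BB94 and 11.09, 11.27 and 11.36 in PD325901 arrays, a 5.90-fold rise (adjusted p = 1.8e-08). CITED2, an inhibitor of HIF transactivation, rose 3.63-fold (adjusted p = 1.3e-05), ARNT2, a partner of HIF proteins, 2.50-fold (adjusted p = 1.1e-06), and EGLN3, a prolyl hydroxylase of HIF, 2.31-fold (adjusted p = 2.2e-05). Under BB94 limma called 0 of the 16, and 2 had an unadjusted p under 0.05. Over all genes 1.58% were called and 1968 of 18132 had such a p.

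Genes of signalling proteins downstream of the receptors moved both ways. Of 28 adaptors and effectors measured, 5 rose under PD325901, 5 fell and 18 showed no call, near the 22.8% and 12.3% of all genes, with a median of 0.00, and 4 rose and 13 fell with arrays centred over genes. SH2D2A, which encodes an adaptor that binds KDR, fell at least 2.48-fold with 1 of 3 treated arrays above background (adjusted p = 1.4e-05). SHB, another adaptor of KDR, fell 1.64-fold (adjusted p = 6.6e-04). PRKCA, a protein kinase C gene, rose 1.69-fold (adjusted p = 0.00383), and SHC2 was called higher with 1 of 3 treated arrays and 0 of 4 controls above background. Under BB94 limma called 0 of the 28, and 4 had an unadjusted p under 0.05. Over all genes 1.58% were called and 1968 of 18132 had such a p.

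Endothelial junction genes other than the 2 members moved in both directions. Of 19 measured, 4 rose under PD325901, 3 fell and 12 showed no call, near the 22.8% and 12.3% of all genes, with a median of 0.12, and 2 rose and 6 fell with arrays centred over genes. JAM3 fell at least 1.60-fold, with 1 of 3 treated arrays above background (adjusted p = 2.1e-04), and ENG, endoglin, fell 1.37-fold (adjusted p = 0.022). ENG lost its call without control replicate 3 or 4 (0.0554 and 0.0541) or PD325901 replicate 2 or 3 (0.0553 and 0.0948), with the replicate block (0.0777) and against control replicates 1 and 2 alone (-0.25, adjusted p = 0.115). CGNL1, a cingulin-like junction protein gene, rose at least 1.58-fold from below background (adjusted p = 3.6e-08), and the kinase gene FYN rose 1.5-fold (adjusted p = 4.7e-04). In BB94 against control 1.58% of all genes were called. Under BB94 only ICAM1, an adhesion molecule for leukocytes, was called, with a 1.5-fold fall (adjusted p = 0.0147) that was lost without BB94 replicate 2 (0.245), with the replicate block (0.0826) and from the arrays of its 2 groups alone (0.0776). Of 17 endothelial transcription factor genes, PROX1 rose at least 1.38-fold from below background (adjusted p = 0.0028), ELK3, an ETS-family repressor gene, fell 1.62-fold (adjusted p = 2.7e-04), and 15 were not called under PD325901. Over all genes 22.8% were higher and 12.3% lower, and with arrays centred over genes 1 of the 17 rose and 8 fell.

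The last lists hold genes of VEGFC processing and of angiogenesis inhibitors. Of 12 VEGFC-processing and lymphatic genes 5 rose and 0 fell under PD325901, beside 22.8% and 12.3% of all genes. With either centring or cyclic loess 1 was lower. CCBE1, a cofactor for VEGFC cleavage, rose 1.78-fold under PD325901 (adjusted p = 4.9e-05). It rose 1.5-fold under BB94 (adjusted p = 0.0241), a call lost without control replicate 2 or 3, either BB94 replicate or PD325901 replicate 2 (0.0518 to 0.200). That call was also lost with the mean of its probe sets (0.38, adjusted p = 0.175), the replicate block (0.0937), the arrays of its 2 groups alone (0.0902) and control replicates 1 and 2 alone (0.0506). CTSD, cathepsin D, rose 2.83-fold (adjusted p = 5.1e-05), and PDPN, a lymphatic surface glycoprotein gene above background in 3 of 4 controls, rose at least 2.13-fold (adjusted p = 5.9e-05). Of 10 genes listed as secreted inhibitors of angiogenesis, 3 rose under PD325901, 2 fell and 5 showed no call, beside the same 22.8% and 12.3%. Centring arrays over genes gave 3 risers and 4 that fell. SERPINF1, which encodes pigment epithelium-derived factor, read 7.53, 7.61, 7.67 and 7.91 in control, 7.44 and 7.39 in BB94 and 11.67, 11.71 and 11.97 in PD325901 arrays. Its 17.2-fold rise (adjusted p = 3.6e-09) set all PD325901 arrays far above the rest, and THBS2, a thrombospondin gene that 2 of 3 treated arrays measured above background, rose at least 1.28-fold (adjusted p = 2.9e-04). The genes that fell were ADAMTS1, a secreted protease that can bind VEGFA (2.94-fold, adjusted p = 7.7e-06), and SPRY2, an intracellular feedback inhibitor of ERK signalling (2.98-fold, adjusted p = 4.0e-06). Under BB94 limma called 0 of the 10, and 1 had an unadjusted p under 0.05. Over all genes 1.58% were called and 1968 of 18132 had such a p.

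**Figure D5:**
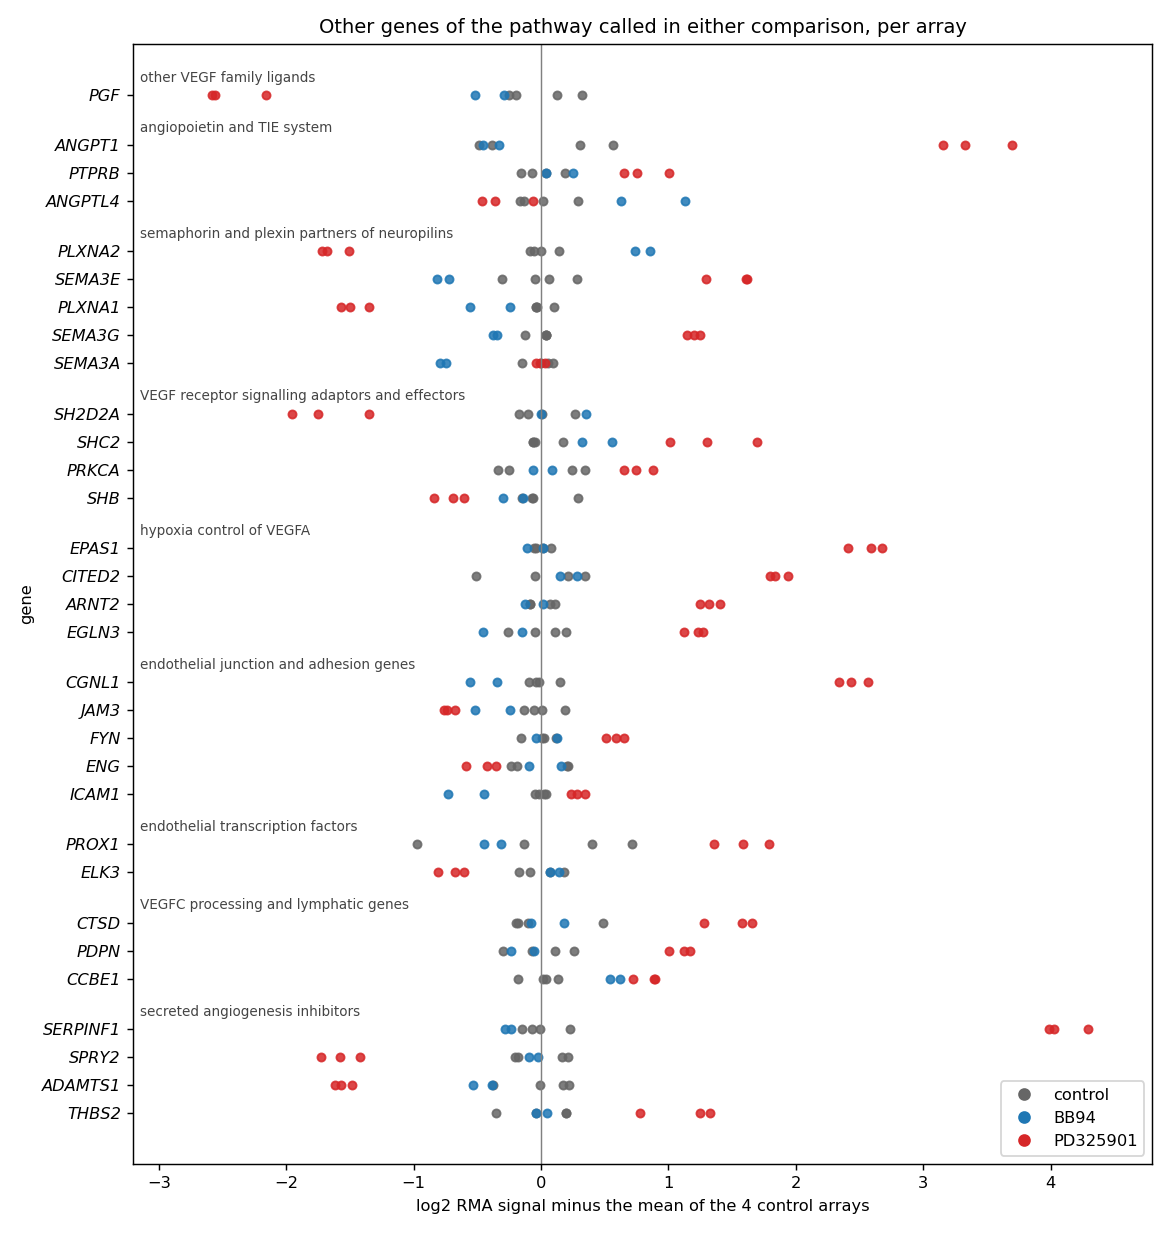
Log2 signal minus the control mean (x axis) in every control (n = 4), BB94 (n = 2) and PD325901 (n = 3) array, for the called genes of each pathway list (y axis), up to 4 per list and comparison. PD325901 points reach from about -2.6 in PGF to about 4.3 in SERPINF1, while BB94 points lie between -0.82 and 1.13.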

How the data were processed

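Total RNA of 9 MDA-MB231 cultures was measured on 9 Affymetrix PrimeView arrays. The authors deposited log2 probe set values made with the RMA routine of the affy package, per the labels and the series design text, and these were used with no further scaling. RMA subtracts background, quantile-normalizes arrays and summarises probes, which can remove part of a shift shared by most genes. Array medians still differed in the deposited values. Over genes they were 7.50 to 7.61 in control, 7.58 and 7.39 in BB94 and 7.77 to 7.86 in PD325901 arrays. The source of that difference was not tested. No genome build is named in the sources used here. Of 49395 probe sets 102 were controls, and 44988 carried 1 gene symbol in the platform annotation (1832 several, 2473 none), which gave 18132 genes. The table was complete, and 0 pairs of arrays were equal throughout.

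Tests used limma 3.58.1 under R 4.3.3 (lmFit and eBayes, two-sided), with a coefficient for each group, no covariate and 6 residual degrees of freedom shared by all 9 arrays. Benjamini-Hochberg adjustment ran over all genes, and calls needed an adjusted p under 0.05; "over all probe sets" marks values adjusted over probe sets instead. On simulated data for PD325901 against control, the script called 81.5% of 200 changed genes and 9 of the others among 18132. The simulation gave fixed changes to those 200 genes and independent normal noise to all. In the real comparison 35.1% of genes were called, so these figures check the script and are not error rates of that comparison. Where any array of the dimmer group lay below its background level, only a bound is given ("at least"): the mean of the brighter group set against, per array, the higher of that level and the dim value. Replicate numbers did not pair the arrays: same-numbered arrays had deviations from group means that correlated between -0.19 and 0.12.

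Array values carry no read depth, and 2 to 4 arrays a group limit the precision. The members and the lists were chosen with earlier results of these data known. Named genes are the 10 members, up to 4 called genes of each pathway list per inhibitor by absolute change, and the 5 genes with the highest Pearson correlation with PECAM1 or VEGFA. Neighbouring genes were added after their values were seen. VEGFD was not analysed here. The alternatives were other summaries of probe sets, a filter at a mean log2 of 6, other limma settings, 3 scalings, the replicate block, subsets of arrays and each replicate left out.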

Additional observations from a re-analysis of the deposited data

How the results depend on the processing

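All 21 alternatives kept the direction and the call of NRP1, VEGFA and VEGFB under PD325901, and the 20 that could be fitted did so for FLT1; the filter at a mean of 6 left no value for FLT1 and FLT4. The direction of PECAM1, ESAM and KDR, which the choice of genes rests on, is not counted here. Counts over the 10 genes do include those 3, whose falls were known beforehand. The number of the 10 called under PD325901 ran from 7 to 8 when 1 replicate was left out (5 to 7 for PD325901 against BB94). Over all genes it ran from 5214 to 7446 (3800 to 6413). Under BB94 the 1 call became 0 with the mean of probe sets and with the filter and 2 against control replicates 3 and 4 alone, and ran from 0 to 1 with 1 replicate left out. Over all genes BB94 called 286. It called 469 with array weights, 161 with the replicate block, 140 from the arrays of its 2 groups alone, 1633 against control replicates 3 and 4 alone and 62 to 367 with 1 replicate left out (116 without BB94 replicate 1, 62 without replicate 2). The share of BB94 calls that were higher moved from 31.1% to 45.3% with centring over genes, 59.3% over probe sets and 45.9% with cyclic loess, and for PD325901 against BB94 from 67.3% to 28.4%, 41.2% and 59.8%. PD325901 against control moved from 65.1% to 52.6% with centring over probe sets.

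The directions that turned all belong to changes that were not called, and the cause was not tested. FLT4 under BB94 turned to 0.0099 with the mean of probe sets, 0.050 and 0.090 with centring over genes and probe sets, 0.038 with cyclic loess and 0.18 against control replicates 3 and 4, and ran from -0.27 to 0.22 with 1 replicate left out. FLT4 under PD325901 turned to -0.14 with centring over genes and -0.093 against control replicates 1 and 2. Against BB94 it turned to -0.19, -0.084 and -0.021 with centring over genes, over probe sets and cyclic loess, and ran from -0.11 to 0.38 with 1 replicate left out. NRP1 under BB94 turned to -0.054 with the mean of probe sets, -0.056 with the replicate block and -0.15 against control replicates 1 and 2, and ran from -0.0073 to 0.24 with 1 replicate left out. NRP2 under BB94 turned to -0.070 with the replicate block and -0.085 against control replicates 1 and 2, and ran from -0.18 to 0.24 with 1 replicate left out. NRP2 under PD325901 turned to 0.031 with the mean of probe sets and 0.080 against control replicates 3 and 4, and ran from -0.13 to 0.045 with 1 replicate left out, against BB94 from -0.28 to 0.15. VEGFC under BB94 ran from -0.079 to 0.13 with 1 replicate left out. FLT1 against BB94 was also called with centring over genes (-0.69, adjusted p = 0.00724), over probe sets (-0.58, 0.0144) and with cyclic loess (-0.52, 0.0377), and NRP2 with centring over genes (-0.39, 0.0476). With the replicate block the 10 genes had 7 calls under PD325901, 1 under BB94 and 5 between the inhibitors. With the 95th percentile of background probe sets as the floor, KDR was above background on 6 arrays. Signals near the floor limit FLT1, FLT4 and KDR most.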
